A study of Hevea brasiliensis with 6 samples.

Results

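The 200 unigenes described here were read in leaves of both rubber tree clones and lay higher in ‘Reken501’ than in ‘93-114’ in control leaves, after 1 h and after 24 h of cold. A unigene is a transcript sequence assembled from sequencing reads. The libraries were compared on a log2 scale, with 0.5 added to each fragment count, the count divided by the library total, and the library's median taken off. The unigenes entering that median were those whose counts averaged 10 fragments or more per library. Of 167072 unigenes, 74271 had 5 or more fragments in every library. The 200 were those whose smallest difference over the 3 times, ‘Reken501’ minus ‘93-114’, was highest. The differences between the clones therefore chose these unigenes, and they are given as a description without a test.

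Leaf RNA was sequenced from the clones ‘Reken501’ and ‘93-114’ of Hevea brasiliensis, untreated or after 1 h or 24 h at 4 °C, from one-year-old plants at the stage of 2 extension units. The study contrasts ‘Reken501’ as cold-sensitive with ‘93-114’ as cold-resistant. Each of the 6 libraries was made from leaves of 3 plants pooled together, so each condition has 1 library and none of the differences below has a replicate check. A difference between clones cannot be told apart from a difference between these pools, and the labels do not say whether the same plants were sampled at different times. The libraries held 20.4 to 21.9 M fragments. In such bulk leaf RNA, fewer cells of a type and less RNA per cell cannot be told apart.

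The rubber tree is a tropical tree grown for natural rubber, which is made in its latex, and its leaves are injured by chilling. Clones are multiplied vegetatively, so a clone carries its own set of alleles into every plant. Assembly software joins reads into contigs and groups similar contigs into a cluster, and a cluster can hold splice forms, alleles or gene copies. Fragments that fit several contigs of a cluster can be divided among them by the counting. In these tables, an ID that starts with CL names the cluster and the contig, and an ID that starts with Unigene stands alone. The tables pair the IDs with no gene name or sequence, and 0 IDs matched the 50196 genes of the RefSeq annotation. No function is therefore given here for any of the 200 unigenes.

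In ‘Reken501’ the 200 unigenes were read well, with a median of 566.5, 533.5 and 494.5 fragments at control, 1 h and 24 h. The medians in ‘93-114’ were 22.5, 15 and 14 fragments. The lowest count of any of them in a ‘Reken501’ library was 93 fragments, and the highest in a ‘93-114’ library was 2702. Levels of different unigenes can be compared as FPKM, in which fragments are scaled to unigene length in kilobases and to library size in M fragments. In ‘Reken501’ their median FPKM was 15.7, 13.9 and 12.4, and ‘93-114’ gave 0.619, 0.427 and 0.401. Over all 74271 unigenes with 5 or more fragments in every library, the median FPKM amounted to 2.74, 2.55 and 2.50 for ‘Reken501’ and to 2.98, 1.91 and 1.86 for ‘93-114’. The 200 thus lay above that median in the former clone and below it in the latter. Together they held 1.72%, 1.81% and 1.64% of the fragments of ‘Reken501’ and 0.0514%, 0.0348% and 0.0359% of those of ‘93-114’.

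**Figure D1:**
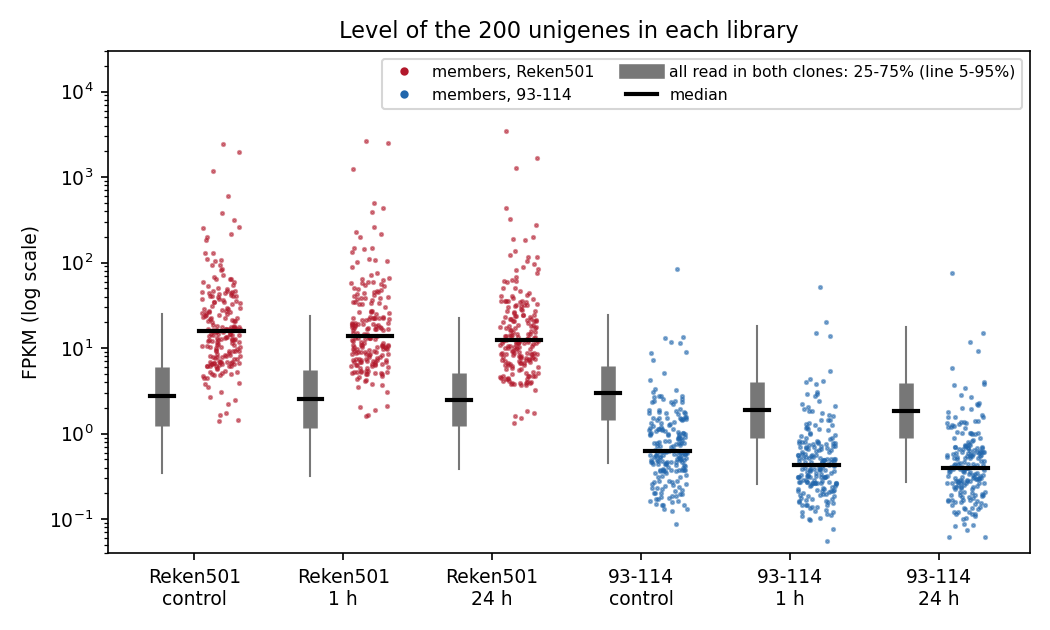
FPKM on a log scale of the 200 unigenes (points, black bar the median) in each of the 6 libraries, beside the quartiles (grey bar) and the 5% to 95% range (grey line) of all 74271 unigenes with 5 or more fragments in every library. The medians of the 200 fall from 15.7, 13.9 and 12.4 in ‘Reken501’ to 0.619, 0.427 and 0.401 in ‘93-114’.

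The smallest of the 3 log2 differences ranged over the list from 3.30 to 8.57 with a median of 3.96, that is a 15.6-fold difference. The median difference came to 4.43, 4.37 and 4.33 for control, 1 h and 24 h. Under the scaling to library totals alone, which lowers the difference at control by 0.18 and raises it in the cold by 0.44 and 0.40, the medians were 4.25, 4.81 and 4.74. Among all unigenes with 5 or more fragments in every library, 4.44% were higher in ‘Reken501’ by a log2 of 1 or more at all 3 times.

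The counting error of these differences was set by the few fragments in ‘93-114’. The 95% interval of a difference (exact conditional, counting error only) had a median width of 1.47 on the log2 scale and was at most 2.93 wide. In all 200 unigenes the 3 lower limits lay at 2 or above, and in 147 at 3 or above. The rule ranked these same differences, so the limits describe counting error in chosen unigenes and are no support for the differences. In 83 of the 200 at least 1 library of ‘93-114’ held fewer than 10 fragments, in 22 at least 1 held exactly 5, and in 55 all 3 held 20 or more. The minimum of 5 fragments shaped the list. A further 1320 unigenes with 5 or more fragments in each ‘Reken501’ library had a smallest difference as high as that of the 200 or higher, and were kept out because a ‘93-114’ library held fewer than 5.

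The largest difference belonged to CL9744.Contig1_All, a contig of 2691 bases. It had 21966, 22391 and 16085 fragments in the control, 1 h and 24 h libraries of ‘Reken501’, and 26, 18 and 32 in ‘93-114’. The log2 differences were 9.81 (95% interval 9.29 to 10.45), 9.79 (9.17 to 10.58) and 8.57 (8.09 to 9.14). Every ‘Reken501’ library was far above every ‘93-114’ library.

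Next came CL14631.Contig2_All, with 43440, 59303 and 37157 fragments in ‘Reken501’ and 89, 84 and 86 in ‘93-114’. Its log2 differences were 9.04, 9.004 and 8.37. At the other end of the list stood CL2666.Contig3_All with a smallest difference of 3.303 and CL12766.Contig2_All with 3.301. The latter had 104, 141 and 117 fragments in ‘Reken501’ and 11, 10 and 5 in ‘93-114’, and the intervals of its differences reached down to 2.46, 2.44 and 2.90. The first unigenes left outside were CL799.Contig2_All with 3.295 and CL1729.Contig3_All with 3.293, so the list ends within a continuous range.

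By level, 127 of the 200 had a mean FPKM of 10 or more over the ‘Reken501’ libraries and 16 had 100 or more. In ‘93-114’, 155 had a mean FPKM under 1 and 4 had 10 or more. The highest level over all libraries was that of CL518.Contig2_All, with an FPKM of 2419, 2530 and 3495 in ‘Reken501’ and of 13.5, 20.0 and 14.96 in ‘93-114’. It was followed by CL14631.Contig2_All, with 1976, 2671 and 1660 in ‘Reken501’ and 4.22, 3.82 and 3.79 in ‘93-114’. The longest unigene was Unigene35760_All with 10983 bases, which stood alone. It had 1231, 1610 and 968 fragments in ‘Reken501’ and 56, 62 and 39 in ‘93-114’, and its difference was similar at all times, with log2 values of 4.56, 4.24 and 4.24. The highest level in ‘93-114’ was that of Unigene23681_All, a case chosen after its values were seen. It had 39183, 41350 and 43605 fragments in ‘Reken501’ and 2702, 1717 and 2581 in ‘93-114’.

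The differences between the clones were steady over the 3 times for most of the list. The span between the largest and the smallest of the 3 log2 differences was under 1 in 137 of the 200 and 2 or more in 4, with a median of 0.75. Over all unigenes with 5 or more fragments in every library the median span was 0.98, and 51.1% had a span under 1. Among the 18104 unigenes with at least 93 fragments in every ‘Reken501’ library the median span was 0.67. By this median the 200 were not steadier than those unigenes. The 18104 were read more in ‘93-114’, with medians of 241, 161 and 159 fragments against 22.5, 15 and 14 for the 200. Counting error widens a span, so these medians are not compared at a like depth. Because the rule asked for a high smallest value, the span is not independent of the choice. The steadiest were CL6493.Contig7_All, with log2 differences of 4.35, 4.31 and 4.36, and CL3369.Contig3_All, with 3.40, 3.45 and 3.46. With library totals in place of the median, 120 of the 200 had a span under 1, and the median span was 0.80 against 1.14 over all. The time of the largest difference turned on the scaling. It was control in 95 unigenes, 1 h in 56 and 24 h in 49, but 29, 98 and 73 with library totals. The shares over all unigenes are not given here for either scaling, so these counts are not read as a result about the 200.

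The difference varied most for CL4151.Contig3_All, which had 856, 710 and 746 fragments in ‘Reken501’ and 6, 10 and 43 in ‘93-114’. Its log2 difference went from 7.16 at control to 5.63 after 1 h and 3.72 after 24 h, and this narrowing came with the rising count in ‘93-114’. Second was CL9627.Contig2_All, with 863, 1772 and 1037 fragments in ‘Reken501’ and 87, 16 and 33 in ‘93-114’. Its difference of 3.42 at control was 6.30 after 1 h and 4.57 after 24 h, widest where ‘Reken501’ was highest and ‘93-114’ lowest.

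Whether a difference seen at 2 times was also present at the third was examined in libraries that the choice had not used. For each time in turn, 200 unigenes were chosen by the same rule from the 4 libraries of the remaining times. At control, the 200 chosen on 1 h and 24 h were all higher in ‘Reken501’ by a log2 of 1 or more, against 16.0% of the 78999 unigenes that could have been chosen. After 1 h, all 200 chosen without that time passed the same limit, against 18.4% of 81898 unigenes. After 24 h, all 200 passed, against 16.9% of 80876. A log2 difference of 3 or more was reached at the unused time by 182, 193 and 182 of the 200, against 1.17%, 1.63% and 1.42% of all. The unused libraries came from the same clones and were counted on the same contigs. They show whether a difference recurred at another time and are no replicate check of the clone difference.

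At the unused time the median difference reached 4.39 for control, 4.48 for 1 h and 4.44 for 24 h, and the lowest single values were 1.52, 1.34 and 1.77. In the background the medians were 0.05, 0.05 and 0.10. In ‘93-114’ at the unused time, 2, 1 and 1 of the 200 were at 0 fragments, and 6, 22 and 21 were under 5. These lists were not the described one but overlapped it. They shared 169, 162 and 153 unigenes with it, 84.5%, 81.0% and 76.5% of either list.

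**Figure D2:**
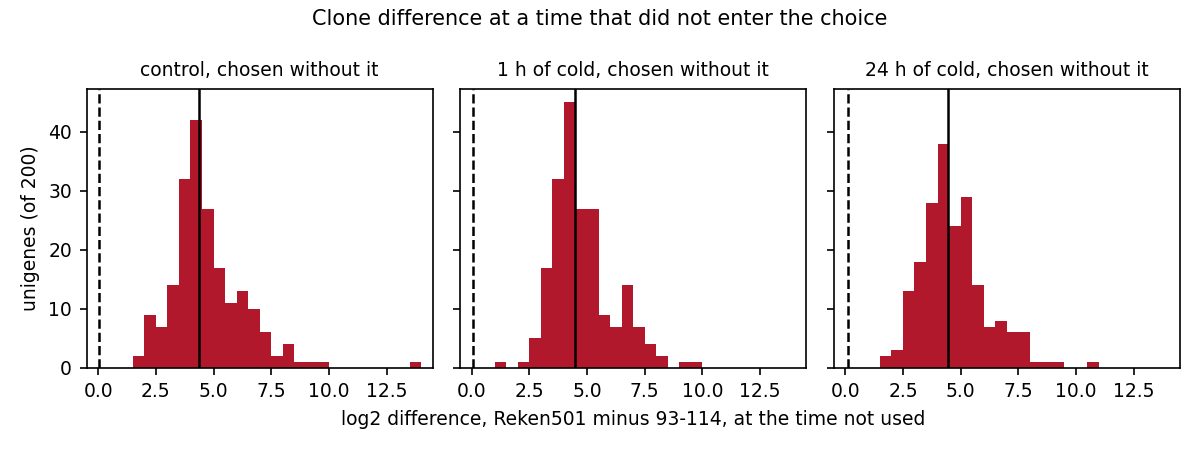
Number of unigenes, of 200, by their log2 difference (‘Reken501’ minus ‘93-114’) at the time that was not used to choose them, for control, 1 h and 24 h. Solid lines mark the medians of 4.39, 4.48 and 4.44, dashed lines the background medians of 0.05, 0.05 and 0.10, and no chosen unigene lies below 1.34.

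The 200 unigenes were long and mostly contigs of clusters. Their median length was 1713 bases (quartiles 1196 and 2422), and 85.5% had 1000 bases or more. Over all unigenes with 5 or more fragments in every library the median was 956 bases and 48.5% reached 1000. Long unigenes collect more fragments, and among the 18104 unigenes with at least 93 fragments in every ‘Reken501’ library the median was 1599 bases and 76.1% reached 1000. Of the 200, 165 (82.5%) were contigs of 162 clusters and 35 stood alone, against 54.4% in clusters over all unigenes with 5 or more fragments in every library and 68.0% among those with 93 or more in each ‘Reken501’ library. The 449 unigenes with 10 or more fragments in every ‘Reken501’ library and 0 in ‘93-114’ had a median length of 372 bases. Of these, 45.7% were in clusters. They were also read less, with medians of 32, 28 and 27 fragments in ‘Reken501’ at control, 1 h and 24 h. Their length is therefore not compared at a like depth.

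The list made by the same rule with the clones exchanged, 200 unigenes always higher in ‘93-114’, had a median length of 1590.5 bases and 76.5% in clusters. Its median log2 differences were -4.50, -4.67 and -4.66. On its high side, in ‘93-114’, the median FPKM was 18.4, 12.3 and 11.8, above the 15.7 of the described list in ‘Reken501’ at control and below its 13.9 and 12.4 in the cold. FPKM is scaled to library totals, and the ‘93-114’ median over all unigenes with 5 or more fragments in every library also fell. It went from 2.98 at control to 1.91 and 1.86 in the cold, so the order in the cold is not read as a trait of the lists. The differences between the lists were not tested.

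Fragments were then summed over all contigs of each cluster. The sums include the described contigs, so that their excess over other clusters, in medians and in counts, is given by the choice and is no separate result. For the sums of the 162 clusters the median log2 difference shrank to 0.93, 0.84 and 0.77 at control, 1 h and 24 h, against 4.43, 4.37 and 4.33 for the 200 unigenes themselves. Of the 162 clusters, 55 (34.0%) were higher in ‘Reken501’ by a log2 over 1 at all 3 times, against 3.26% of the 13674 clusters with a unigene of 5 or more fragments in every library. Another 64 (39.5%) stayed between -1 and 1 at every time, against 60.9% of those clusters, and 2 were below -1 at every time. In 121 of the 162 all 3 sums were above 0 and in 15 all were below 0. A sum that was still as high at all times as the lowest value among the 200 was found in 7 clusters. The medians over all clusters were 0.20, 0.15 and 0.12.

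On the median, the described contig held 64.0%, 65.7% and 60.9% of its cluster's fragments in ‘Reken501’ and 3.76%, 4.21% and 4.23% in ‘93-114’. A large share in one clone beside a small share in the other follows from the choice of the contigs. The other contigs of the 162 clusters with 5 or more fragments in every library numbered 606. Of these, 80 (13.2%) were higher in ‘93-114’ by a log2 over 1 at all 3 times, 45 (7.43%) were as clearly higher in ‘Reken501’, and 209 (34.5%) stayed within 1 throughout. Over all 40396 such contigs the shares were 5.54%, 5.53% and 45.6%.

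**Figure D3:**
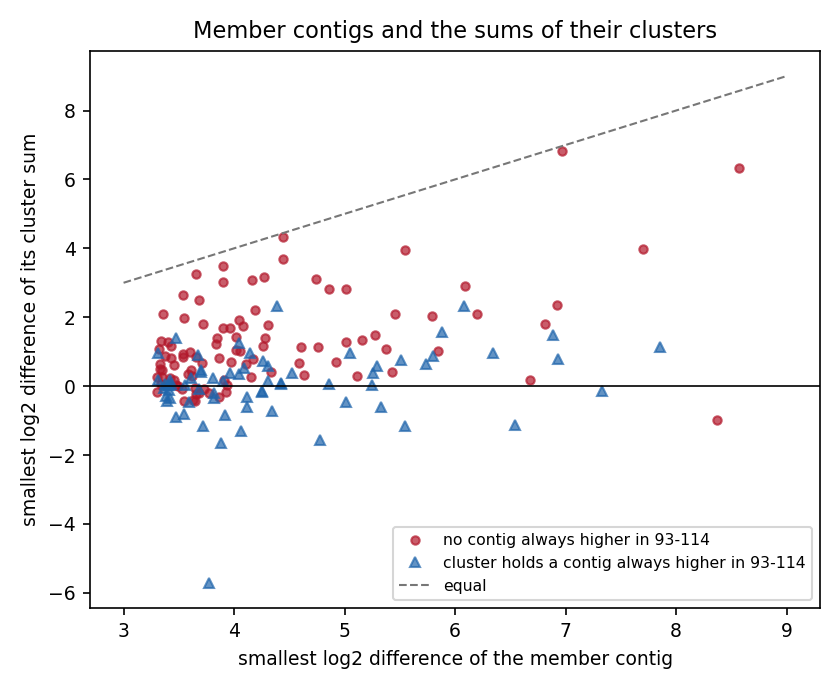
Smallest of the 3 log2 differences (‘Reken501’ minus ‘93-114’) of each of the 165 cluster contigs (horizontal) and of the summed fragments of its cluster (vertical). Triangles mark clusters that hold a contig with 5 or more fragments in every library that is higher in ‘93-114’ by a log2 over 1 at all times. The contigs reach from 3.30 to 8.57, while most sums lie far below the dashed line of equal values.

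A contig with the opposite difference, higher in ‘93-114’ by a log2 over 1 at every time and with 5 or more fragments in every library, was present in 66 of the 162 clusters (40.7%). Among the 7102 clusters that hold a unigene with at least 93 fragments in every ‘Reken501’ library it was present in 14.7%. Those clusters were matched on reads in ‘Reken501’ alone, while the described contigs were also chosen for few fragments in ‘93-114’. As fragments can be divided among the contigs of a cluster, the excess here and by cluster size is not independent of the choice. It was not tested. If the 5 fragments were asked for in the ‘93-114’ libraries alone, an alternative added after the results were seen, such a contig was present in 89 of the 162 (54.9%) against 21.2%. The share was higher in clusters of each size, though least so in large ones. With 2 contigs it was 12 of 23 clusters (52.2%) against 7.46%, with 3 contigs 16 of 39 (41.0%) against 11.4%, with 4 or 5 contigs 19 of 43 (44.2%) against 15.3%, and with 6 or more 19 of 57 (33.3%) against 25.6%. In the list with the clones exchanged, 53 of 146 clusters (36.3%) held a contig always higher in ‘Reken501’ by a log2 over 1. Of the 13674 clusters with a unigene of 5 or more fragments in every library, 14.2% did. The share among clusters read as deeply in ‘93-114’ is not given here. Both lists had members in 19 clusters, 11.7% of the clusters of the described list and 13.01% of those of the exchanged list.

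The 68 unigenes with such an opposite contig were set beside it, taking the most negative where a cluster held several. The opposite contigs had median log2 differences of -2.35, -2.69 and -2.47, and their median length of 1820.5 bases was close to the 1765 of the described contigs. Summed over the pair, the median log2 difference was 0.75, 0.38 and 0.42, and in 31 of the 68 pairs it stayed between -1 and 1 at all 3 times. It was above 1 throughout in 19 pairs and below -1 throughout in 2. Both contigs of a pair were chosen for differences of opposite sign. A summed difference smaller than that of the described contig therefore follows from the choice and is no separate result. Per length, the described contig in ‘Reken501’ and the opposite contig in ‘93-114’ lay within a log2 of 1 of each other in 31, 35 and 37 of the 68 pairs at the successive times.

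The pair in CL4795 was one with the most negative opposite contigs. CL4795.Contig1_All, of 1762 bases, had 771, 805 and 835 fragments in ‘Reken501’ and 49, 50 and 52 in ‘93-114’. CL4795.Contig2_All, of 1720 bases, had 9, 7 and 10 in ‘Reken501’ and 863, 949 and 1090 in ‘93-114’. The contigs thus mirrored each other, and the summed cluster differed by log2 values of -0.11, -0.75 and -0.82.

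In CL10219 the opposite contig was much the more abundant. CL10219.Contig3_All had 877, 1080 and 728 fragments in ‘Reken501’ and 69, 44 and 33 in ‘93-114’. CL10219.Contig2_All had 275, 198 and 246 in ‘Reken501’ and 28712, 28532 and 38880 in ‘93-114’. The cluster as a whole was therefore lower in ‘Reken501’, with log2 differences of -4.53, -4.93 and -5.70.

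The unigenes at the head of the list parted in the same respect. The cluster of CL14631.Contig2_All holds 1 other contig, CL14631.Contig1_All, with 33338, 46637 and 28720 fragments in ‘Reken501’ and 43496, 61823 and 99667 in ‘93-114’. With it, the log2 difference of the cluster went from 0.93 at control to 0.32 after 1 h and -0.98 after 24 h, so that its sign changed. In the cluster of CL9744.Contig1_All, the sums of 22797, 24042 and 17879 fragments in ‘Reken501’ and 309, 155 and 134 in ‘93-114’ kept log2 differences of 6.32, 6.82 and 6.67. The cluster of CL518.Contig2_All, the most abundant unigene of the list, had summed differences of 0.90, -1.12 and 0.15. That of CL3141.Contig1_All, with 4.32, 5.09 and 5.12, stayed near the differences of the contig alone, 4.44, 5.07 and 5.07.

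**Figure D4:**
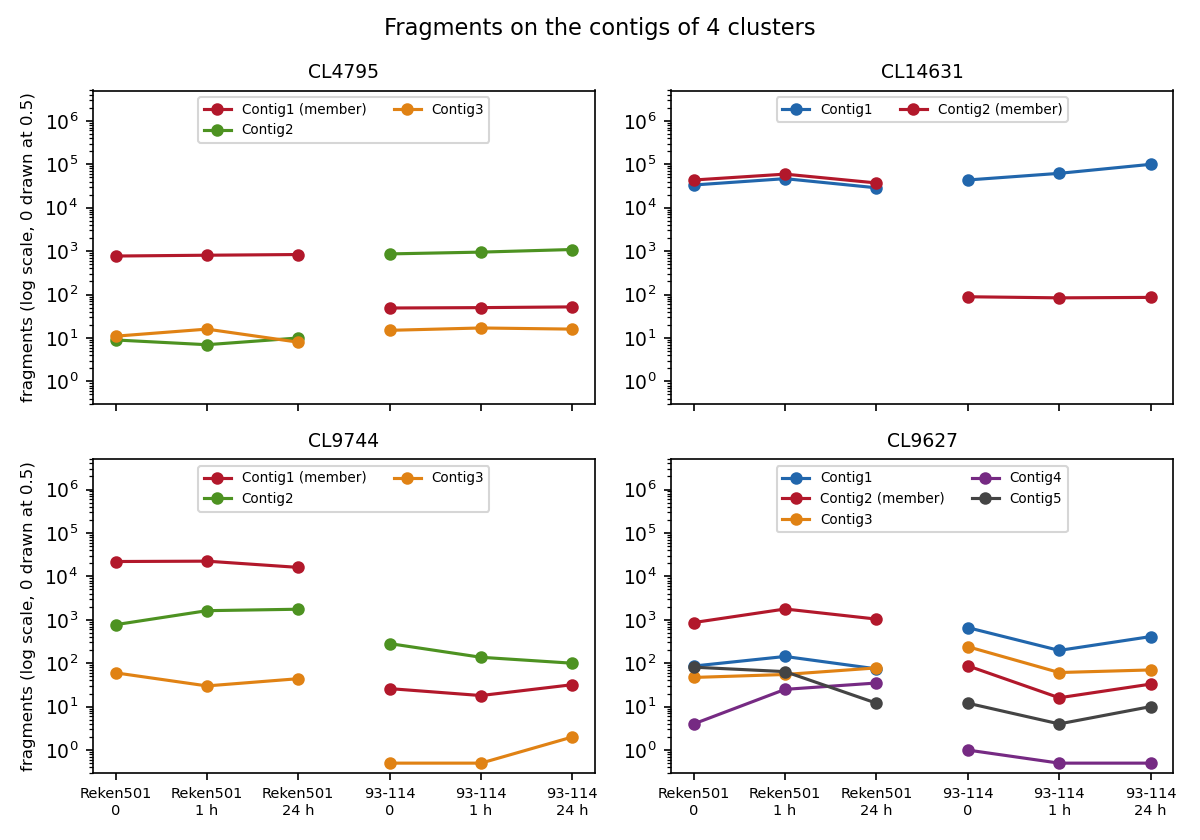
Fragments on a log scale (0 drawn at 0.5) on each contig of 4 clusters in the 6 libraries, with lines joining the times of a clone. In CL4795 the described contig (771, 805 and 835 fragments in ‘Reken501’) and Contig2 (863, 949 and 1090 in ‘93-114’) exchange places between the clones, in CL14631 the other contig is high in both, in CL9744 every contig is lower in ‘93-114’, and in CL9627 the described contig moves in opposite ways after 1 h.

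The 35 unigenes that stood alone had a median smallest log2 difference of 3.91, against 3.97 for those in clusters, and a lower level, with a median of the mean ‘Reken501’ FPKM of 9.47 against 15.2. The first of them in the list was Unigene48373_All, named after its values were seen, with 472, 353 and 356 fragments in ‘Reken501’ and 5, 6 and 6 in ‘93-114’. If the rule was applied after summing each cluster, all 35 were still chosen and 21 of the 165 in clusters were, 56 of the 200 in all. A unigene that stands alone keeps its own fragments in this summing, so that all 35 stayed is no separate result.

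The response of the 200 unigenes to cold was compared within each clone, a contrast that the rule did not use directly, although it used the same libraries. A unigene was called when its fragments in 2 libraries differed by an exact binomial test, two-sided and conditional on their sum, and by a log2 ratio of at least 1. The p-values were adjusted by the Benjamini-Hochberg method over every unigene seen in at least 1 of the libraries, and the study's limit of 0.001 was used. Such calls compare the 2 libraries, not the conditions. In ‘Reken501’ the median log2 ratio to control was 0.06 after 1 h and -0.19 after 24 h for the 200, and 0.01 and -0.06 for all unigenes with 5 or more fragments in every library. In ‘93-114’ it was 0.15 and 0.04 for the 200, and 0.06 and -0.04 for all.

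After 1 h of cold in ‘Reken501’, 3 of the 200 rose and 4 fell. Of all unigenes tested 1.51% rose and 1.54% fell, and of those with 5 or more fragments in every library 2.17% and 2.46%. After 24 h, 4 rose and 7 fell, where 4.44% and 3.11% of all tested and 4.8% and 5.18% of those with 5 or more did. In all, 17 of the 200 (8.5%) were called at either time in ‘Reken501’, against 12.4% of unigenes with 5 or more fragments in every library and 9.95% of those with 93 or more in each ‘Reken501’ library. Those with 93 or more had medians of 278, 265 and 245 fragments in ‘Reken501’, below the 566.5, 533.5 and 494.5 of the 200. The shares are therefore not compared at a like depth.

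In ‘93-114’ after 1 h, 5 rose and 3 fell, where 4.25% and 1.9% of all tested and 6.99% and 3.24% of those with 5 or more did. After 24 h, 3 rose and 4 fell, where 6.33% and 3.02% of all tested and 6.99% and 5.02% of those with 5 or more did. In all, 12 of the 200 (6.0%) were called at either time, against 16.6%. With medians of 22.5, 15 and 14 fragments per library, a change by a log2 of 1 was not detectable in ‘93-114’ for most of the 200, and the low share called does not show a steady level. No call was made in any of the 4 comparisons for 175 of the 200 (87.5%), against 75.8%. The calls in ‘93-114’ depended on the scaling. With library totals in place of the median, 1 rose and 15 fell after 1 h, and the counts were the same after 24 h. Calls over all unigenes in ‘93-114’ went from 9667 to 19468 after 1 h and from 14952 to 24758 after 24 h. The shares rising and falling over all with that scaling are not given here, so these counts are not read as a result about the 200.

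**Figure D5:**
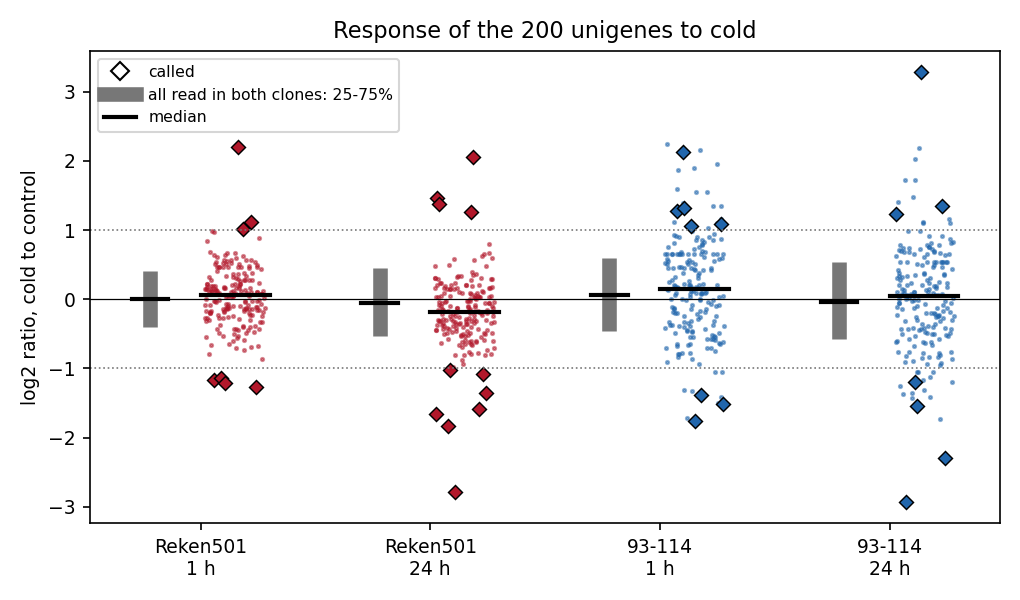
Log2 ratio of cold to control of the 200 unigenes (points, black bar the median) in each clone after 1 h and 24 h, beside the quartiles (grey bar) and median of all unigenes with 5 or more fragments in every library. Diamonds are called unigenes (7, 11, 8 and 7 of the 200), and most points lie between the dotted lines at a log2 ratio of 1 and -1.

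The largest rises in ‘Reken501’ after 1 h were those of CL6092.Contig5_All and CL9627.Contig2_All. CL6092.Contig5_All had 195 fragments at control, 847 after 1 h and 283 after 24 h, a log2 ratio of 2.20 at 1 h. Its 17, 21 and 5 fragments in ‘93-114’ were not called. After 24 h the largest rises were a log2 ratio of 2.06 for CL1827.Contig2_All, with 177, 172 and 720 fragments, and of 1.46 for CL4025.Contig1_All, with 1318, 1788 and 3519. In ‘93-114’ these had 9, 6 and 11 and 78, 87 and 66 fragments, with no call.

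The largest fall in either clone was that of CL3025.Contig11_All. It had 7708, 3005 and 1081 fragments in ‘Reken501’, with log2 ratios to control of -1.28 and -2.79. In ‘93-114’ it had 679, 165 and 61, with -1.39 and -2.93. It fell at both times in both clones, and the difference between the clones stayed at log2 values of 3.62, 3.73 and 3.76. After 1 h CL1726.Contig3_All also fell in both, from 1739 to 709 fragments in ‘Reken501’ and from 92 to 20 in ‘93-114’, and recovered in part after 24 h with 1176 and 47. After 24 h CL3141.Contig1_All fell in both, from 1210 to 372 and from 60 to 8. CL7206.Contig3_All fell from 1035 to 283 fragments in ‘Reken501’ after 24 h, and from 40 to 14 in ‘93-114’ without a call.

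In ‘93-114’ the largest rise was that of CL4151.Contig3_All after 24 h, with a log2 ratio of 3.28, from the 6 and 43 fragments given above. CL7665.Contig1_All rose from 69 to 92 and 121 fragments, with log2 ratios of 1.06 and 1.34, while its 3031, 3574 and 3393 fragments in ‘Reken501’ were not called. After 1 h the largest called rises were those of CL13693.Contig2_All, from 38 to 107 fragments, and CL1899.Contig4_All, from 185 to 294, with log2 ratios of 2.13 and 1.32. With library totals the rises of CL4151.Contig3_All (2.64) and of CL13693.Contig2_All after 1 h (1.42) were still called. Those of CL7665.Contig1_All (0.35 and 0.70) and CL1899.Contig4_All (0.61) were not.

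The response of ‘Reken501’ was above that of ‘93-114’ by a log2 of 1 or more for 9 of the 200 after 1 h and 13 after 24 h, and below it by as much for 26 at both times. Over all unigenes with 5 or more fragments in every library, 13.5% and 13.1% were above and 17.5% and 14.4% below. This measure is made of the clone differences that the rule used, and it depended on the scaling. With library totals 52 and 37 of the 200 were above and 3 and 7 below. The shares over all unigenes with that scaling are not given here, so these counts are not read as a result about the 200.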

How the data were processed

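Reads were cleaned of adapters and poor-quality sequence by the authors. Each of the 4 deposited tables pairs a cold library with its clone's control and holds raw fragment counts and lengths of unigenes. The study's methods map reads to a genome, whose gene IDs are not those of the tables, so how these unigenes were assembled and counted is not given in the sources used here. The authors' FPKM, log2 ratio, p-value and false discovery rate columns were not used. The counts were joined, with 0 for an absent unigene. The control columns that tables share held equal values, and each column added up to the total in its heading. FPKM was recomputed from counts, lengths and totals.

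Fits and figures used Python 3.11.15, numpy 2.4.6, pandas 2.3.3, scipy 1.17.1 and matplotlib 3.10.9, with edgeR 4.0.16 and DESeq2 1.42.0 in R 4.3.3 for other scalings. edgeR's quasi-likelihood test was not run. Within a clone each condition has 1 library, and the clone difference, which a fit with time as a block could test, chose the unigenes. Calling and the choice of unigenes were tested on simulated data. Intervals are at the 95% level and cover counting error only.

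The members and the lists compared were chosen with earlier results of these data known. Unigenes were named by rule: the first 2, the last 2 and the first 2 outside the list, the 2 most abundant, the longest, up to 2 called rises and falls in each cold comparison, the 2 steadiest and 2 most variable, and the 2 with the most negative contig in the cluster. Others are said to be chosen after their values were seen. No sequence of a unigene was used here.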

Additional observations from a re-analysis of the deposited data

Results flagged for a closer look

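CL9627.Contig2_All stood out as the only one of the 200 unigenes called in opposite ways in the clones. After 1 h of cold it rose in ‘Reken501’ (863 to 1772 fragments, a log2 ratio of 1.12) and fell in ‘93-114’ (87 to 16, -1.75), so that the responses differed by 2.88 on the log2 scale. After 24 h, with 1037 and 33 fragments, it was called in neither. This difference in response was not tested, as only 1 library of a clone stands for each time. In the same cluster, CL9627.Contig1_All had 86, 143 and 74 fragments in ‘Reken501’ and 660, 197 and 410 in ‘93-114’.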

How the results depend on the processing

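No paired analysis was possible because the cold comparisons within a clone have 1 library a condition. The clones could be paired by time, but their difference chose the unigenes and was not tested. Of 157 alternative values of 33 results, 96 stayed within 1.5 times the main count or within the 95% rank interval of a main median. The other 61 moved beyond these limits, and the cause was not tested. No median changed sign. A count cannot change sign, so this does not cover a balance between counts that turned, as given below. Of the 200 unigenes, 176 stayed with library totals, 198 with TMM, 197 with DESeq2 factors and between 153 and 169 when 1 time was left out, but 117 with a minimum of 10 fragments, 55 with 20 and 56 with clusters summed. With 5 fragments added, the median differences were 4.17, 4.03 and 4.01 at control, 1 h and 24 h, and with library totals 4.25, 4.81 and 4.74. At the unused time, a minimum of 20 fragments gave medians of 3.24, 3.40 and 3.27, and library totals gave 5.01 after 1 h and 4.81 after 24 h. With that minimum, 190, 198 and 200 of the 200 were higher in ‘Reken501’ by a log2 of 1 or more at control, 1 h and 24 h.

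Rises and falls among the 200 are given in the order ‘Reken501’ 1 h and 24 h, ‘93-114’ 1 h and 24 h. A log2 ratio of 2 left rises of 1, 1, 1 and 1 and falls of 0, 1, 0 and 2, and 1772, 6331, 3742 and 8107 calls over all unigenes, against 4757, 12089, 9667 and 14952. With edgeR's exact test at an assumed coefficient of variation of 0.4, 0 of the 200 were called, and 5, 72, 3 and 152 of all. An adjusted p of 0.05 gave 14 and 8 rises and 7 and 7 falls in ‘93-114’, and 13237, 26192, 19953 and 29971 calls over all. In ‘93-114’, library totals gave 1 and 1 rises, 15 and 15 falls, and 19468 and 24758 calls over all, and totals without the 100 most-read unigenes gave 1 rise after 1 h and 7 falls at each time. With library totals, the ‘Reken501’ response was above by 1 or more in 52 and 37 and below in 3 and 7. The main values were 9 and 13 above and 26 and 26 below, so this balance turned after 1 h and after 24 h. The largest difference fell at control in 29 and at 1 h in 98 of the 200 with library totals, chosen after seeing the data. Shares over all unigenes with library totals are given neither for this nor for the difference in response. The median smallest difference of the cluster sums and the clusters above 1 at every time stayed within these limits under the alternatives run. So did the clusters with an opposite contig, though they went from 66 to 89 with the 5 fragments asked for in ‘93-114’ alone. Other cluster values had none.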
